A study of Mus musculus with 4 samples.

Results

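The switch between inflammatory signalling, apoptosis and necroptosis was followed through 9 genes in cultured mouse microglia: Ripk1, Ripk2, Ripk3, Mlkl, Zbp1, Fadd, Tradd, Casp8 and Cflar. They were chosen by symbol from the deposited gene table, where each of the 9 matched 1 of 51826 gene models, and all 9 passed the filter on low counts that 19057 models passed. These genes and the gene lists below were chosen with earlier results of these data known. The study measured messenger RNA by sequencing in 4 libraries. The comparison set 2 libraries of primary microglia treated for 4 h with lysophosphatidylserine (LysoPS) against 2 mock libraries, which the labels also call untreated. Both groups were C57BL/6 cells from brains of newborn mice, freed of meninges, grown as mixed cultures for about a fortnight and shaken off the layer beneath. LysoPS is a phospholipid that has lost a fatty acid chain, and it is a known ligand of GPR34, the receptor in the series title. No dose is stated in the labels. The sample titles mark 2 LysoPS libraries while the treatment protocol speaks of 1 treated replicate, and the titles were followed. Nothing says that replicates were separate cultures or separate animals, so p-values measure only the spread between these samples, which may be technical.

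Binding of TNF to its receptor draws the adaptor TRADD and the kinase RIPK1 to the membrane, where ubiquitin chains on RIPK1 favour survival signalling. When that signal fails, RIPK1 and the adaptor FADD recruit caspase-8, the initiator protease of death receptor apoptosis, and its catalytically inactive relative c-FLIP, the product of Cflar. Caspase-8 paired with the long form of c-FLIP cleaves RIPK1 and RIPK3 and holds necroptosis back. When caspase-8 is inactive, RIPK3 phosphorylates the pseudokinase MLKL, which then ruptures the plasma membrane. ZBP1, a sensor of Z-form nucleic acids, can engage RIPK3 without a death receptor, and RIPK2 is a related kinase that carries signals from the peptidoglycan sensors NOD1 and NOD2 to NF-kappaB.

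Of the 9 genes, 5 were higher after LysoPS, namely Ripk2, Zbp1, Cflar, Mlkl and Casp8. The NOD kinase Ripk2 and the sensor Zbp1 showed the largest differences, with fitted folds of 3.32 and 3.03. The caspase-8 inhibitor Cflar was 2.26-fold higher, the executioner Mlkl 1.75-fold and the protease Casp8 1.68-fold. Ripk1, Ripk3, Tradd and Fadd did not pass the threshold, an adjusted p under 0.05 by edgeR's quasi-likelihood test with Benjamini-Hochberg adjustment over all tested genes. Over all genes 25.5% were called, 12.8% as higher and 12.6% as lower. The median log2 fold change, LysoPS over mock, was 0.75 over the 9 genes and -0.01 over all tested genes. None of the 9 was called lower by edgeR, DESeq2 or limma-voom. DESeq2 called 13.6% of the 17579 genes with an adjusted p lower, and limma-voom 12.7% of all tested genes. With 9 genes, a count of 0 is near such shares. At an unadjusted p under 0.05, 0 of the 9 were lower in any of these fits. The share of all genes at that cutoff was not taken. Values below are normalised read counts (CPM, counts scaled to a common TMM-adjusted library size) unless TPM, a per-length unit, is named.

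**Figure D1:**
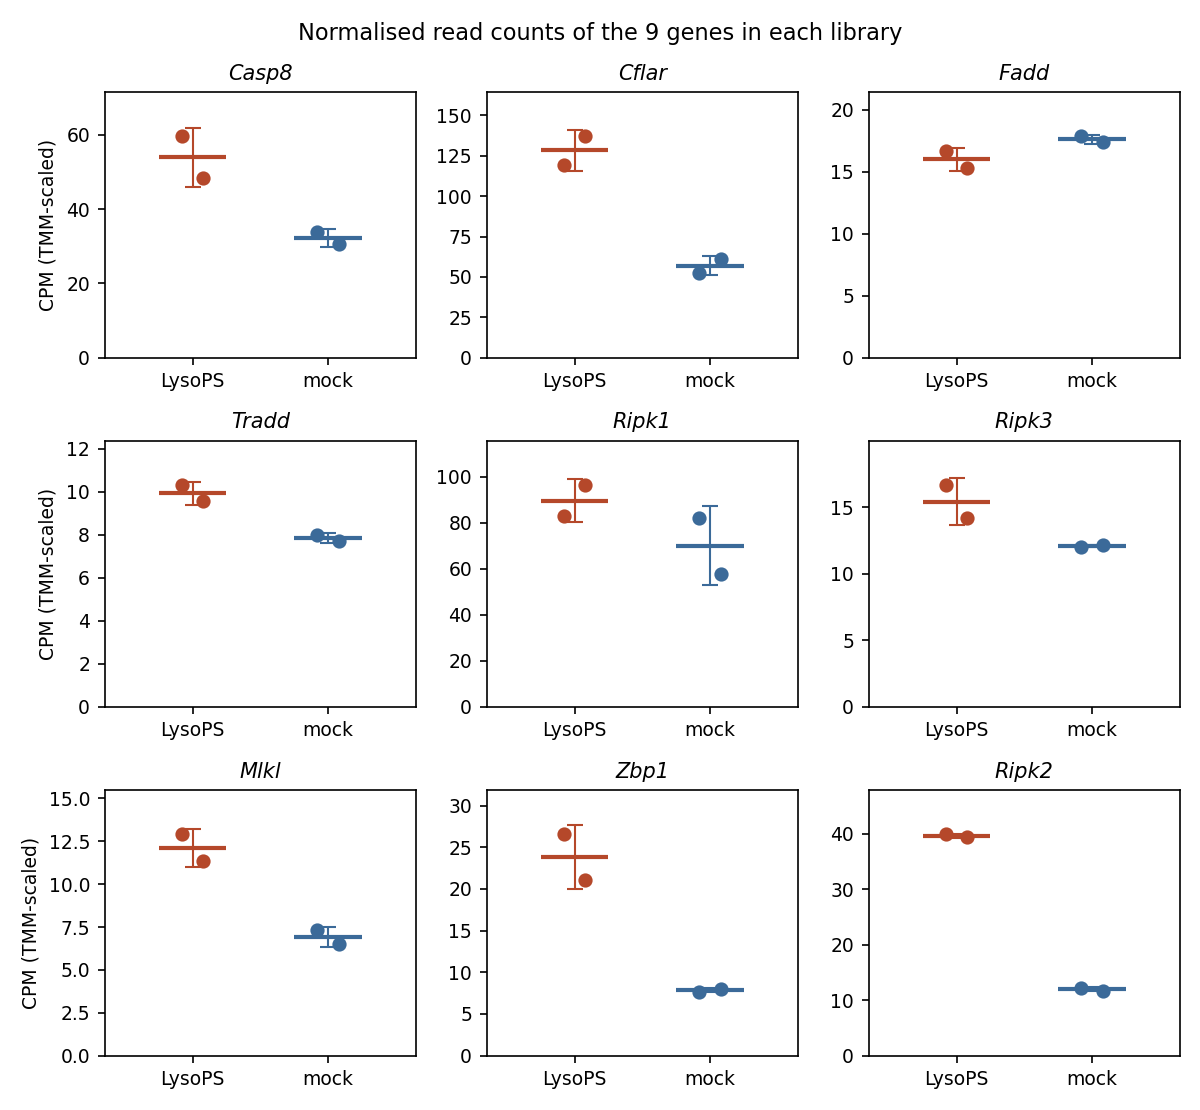
CPM of each gene in each library, with LysoPS left of mock in every panel; points are libraries, horizontal bars the mean and error bars the SD (n = 2). The LysoPS points of Ripk2 and Zbp1 lie highest relative to their mock points, with fitted folds of 3.32 and 3.03, while the highest mock point of Ripk1 (82.3) all but reaches its lowest LysoPS point (83.1).

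**Figure D2:**
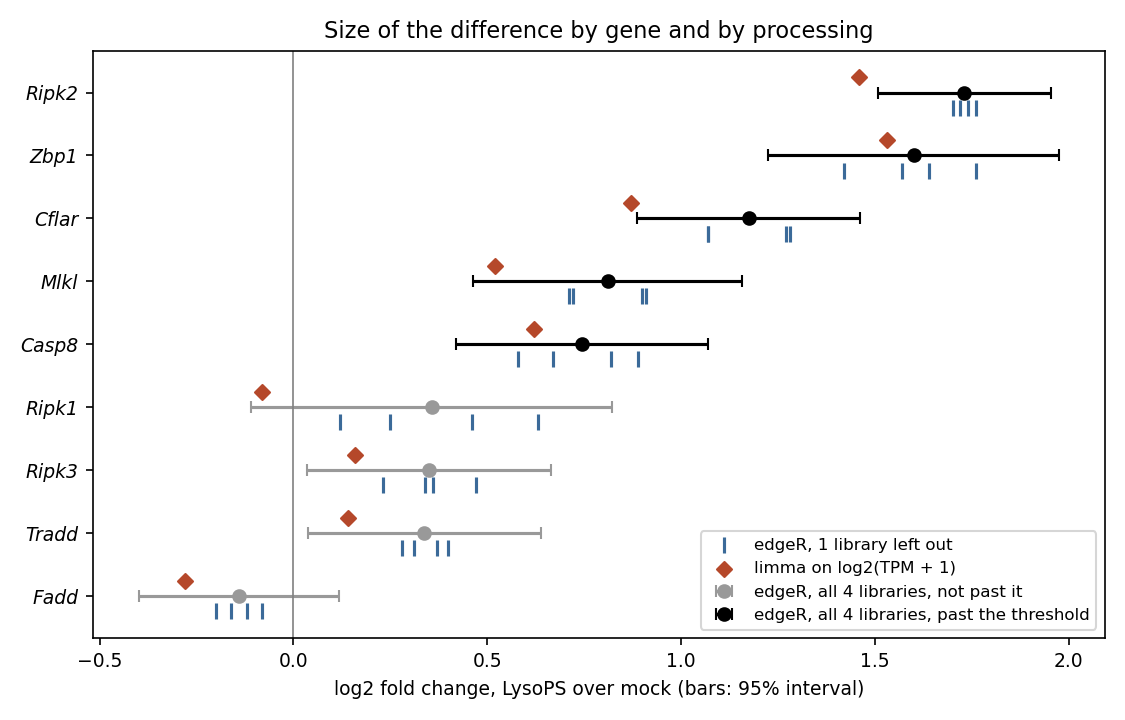
Log2 fold change of each gene, LysoPS over mock, by edgeR with its 95% interval (black past the threshold, grey not), with each library left out in turn (blue ticks), and from limma on log2(TPM + 1) (diamonds). Ripk2, Zbp1 and Cflar stay above 0.8 in every setting drawn, and Ripk1 lies on either side of 0.

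The cultures held microglia and other cells. Summed over a list of 20 microglia and macrophage markers, TPM stood at 23101 and 21131 in the LysoPS libraries and at 10626 and 10092 in the mock libraries, with Lyz2, Fcer1g and C1qc the most abundant. Lyz2 carried more of these sums than any other gene, and without it they were 8105 and 7467 in LysoPS libraries and 5865 and 5577 in mock libraries. Of the 21 gene models of that list 14 were higher and 2 lower, with a median log2 fold change of 0.54 and single values from -0.80 to 3.73. The highest value came from a second Itgam model that was not called, at 0.0325 and 43.3 CPM in the mock libraries. The other Itgam model stood at 1.16, and Aif1, at 2.33, was the highest of those called. Csf1r, a receptor that defines the lineage, stood at 458 and 425 CPM in LysoPS and 351 and 320 in mock. Summed astrocyte markers, led by Gfap, Aqp4 and Gja1, stood at 2991 and 3563 TPM in LysoPS and 7668 and 7044 in mock, with 9 of 11 lower and a median of -0.87. Gja1 was not called, and its replicates lay far apart, at 86.6 and 240.5 TPM in LysoPS and 1008 and 443.8 in mock. Fibroblast markers summed to 4570 and 5113 TPM in LysoPS and 6418 and 6779 in mock (3 of 8 lower), and endothelial markers to 76.3 and 90.7 against 177 and 177 (2 of 5 tested models lower). Cdh5 carried most of the endothelial sums, at 71.1 and 84.6 TPM in LysoPS and 165.8 and 164 in mock. Kdr was also lower, while Pecam1 (log2 fold change 2.09), Emcn (0.54) and Tek (-1.02) had few reads and were not called. Oligodendrocyte lineage markers summed to 261 and 259 TPM in LysoPS and 311 and 307 in mock (3 of 8 higher, 1 lower). Their median log2 fold change was 0.20, with 6 of 8 positive, although the sums were lower in LysoPS. Cnp, the gene called lower, stood at 69.8 and 68.2 TPM in LysoPS and 119.6 and 114.8 in mock. Neuron markers summed to 288 and 372 TPM in LysoPS and 338 and 379 in mock (1 of 6 higher), with a median log2 fold change of 0.13 and 5 of 6 positive, although the sums were lower in LysoPS. Map2, which was not called, stood at 54.0 and 131.7 TPM in LysoPS and 112.7 and 163 in mock. The median over all tested genes was -0.14 on log2(TPM + 1) and -0.01 by edgeR. Of 8 T cell and neutrophil markers, 6 had no count in any library, among them Cd3e, Cd8a, S100a9 and Ly6g; Cd4 was lower and S100a8 was not called, and the list summed to 5.83 and 3.22 TPM in LysoPS and 2.81 and 3.71 in mock. In such bulk samples fewer cells of a type and less RNA per cell cannot be told apart. Of the 9 genes, 5 lay above the median log2 fold change of the microglia markers and 4 below it, and the part of cell makeup in their differences was not tested.

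Neither adaptor at the start of the pathway was called. Fadd, which links death receptors to caspase-8, had 16.6 and 15.3 CPM in the LysoPS libraries, against 17.9 and 17.4 in the mock libraries. Both LysoPS values lay below both mock values, the only one of the 9 genes with that order, but the log2 fold change was -0.14 with a 95% interval from -0.40 to 0.12 (adjusted p = 0.361 by edgeR). Tradd, the adaptor of TNF receptor 1, had 10.3 and 9.56 CPM after LysoPS and 8.02 and 7.70 in mock. Its log2 fold change of 0.34 (95% interval from 0.04 to 0.64) did not pass the threshold after adjustment over all genes (adjusted p = 0.0988 by edgeR). In GRCm38 they are minus-strand genes, Fadd at chr7:144577318-144582463 and Tradd at chr8:105258286-105264609.

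Casp8 and its brake Cflar were both higher. Casp8 had 59.6 and 48.4 CPM in LysoPS libraries and 33.9 and 30.5 in mock libraries, so the groups did not overlap. Its log2 fold change was 0.75 ± 0.13 (SE; adjusted p = 0.0146 by edgeR), and without mock replicate 2 it was 0.67 and lost the call (adjusted p = 0.0697 by edgeR). Cflar stood at 119.5 and 137 CPM after LysoPS, against 52.7 and 61.0 in mock. This was the most read of the 9 genes, with 5994 counts in LysoPS replicate 2, and its log2 fold change was 1.17 ± 0.11 (SE; adjusted p = 0.00309 by edgeR). It was called with any 1 library left out, at 1.07 to 1.28.

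The 2 genes are neighbours on the plus strand of chromosome 1 in GRCm38. Cflar runs from 58711508 to 58758884 and Casp8 from 58795374 to 58847503, with 36489 bases between them. The gap holds 1 further model, Gm3841, with 1 count over all libraries. Their start regions are shown because the pair lies side by side and both genes were higher; Mlkl, also higher, and the second start of Ripk1, which was not called, stand beside them. All are from RefSeq (GRCm38.p6), 250 bases before to 50 after a start site, written 5′ to 3′ on the gene's strand. Capitals mark matches to the interferon-stimulated response element (ISRE) and the gamma-activated site (GAS), the sequences that interferon-activated factors are known to bind.
Cflar (chr1:58711241-58711540, plus strand): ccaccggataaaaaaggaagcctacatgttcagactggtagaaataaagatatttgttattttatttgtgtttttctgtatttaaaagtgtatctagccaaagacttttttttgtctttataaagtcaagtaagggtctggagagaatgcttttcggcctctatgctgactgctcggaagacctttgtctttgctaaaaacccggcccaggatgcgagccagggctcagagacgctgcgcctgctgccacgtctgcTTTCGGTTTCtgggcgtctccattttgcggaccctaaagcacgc
Casp8 (chr1:58802252-58802551, plus strand): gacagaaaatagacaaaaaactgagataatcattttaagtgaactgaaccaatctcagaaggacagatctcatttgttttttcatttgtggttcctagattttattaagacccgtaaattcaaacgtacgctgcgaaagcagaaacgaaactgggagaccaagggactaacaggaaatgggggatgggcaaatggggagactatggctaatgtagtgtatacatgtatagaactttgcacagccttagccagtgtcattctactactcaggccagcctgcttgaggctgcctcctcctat
Mlkl (chr8:111338156-111338455, minus strand): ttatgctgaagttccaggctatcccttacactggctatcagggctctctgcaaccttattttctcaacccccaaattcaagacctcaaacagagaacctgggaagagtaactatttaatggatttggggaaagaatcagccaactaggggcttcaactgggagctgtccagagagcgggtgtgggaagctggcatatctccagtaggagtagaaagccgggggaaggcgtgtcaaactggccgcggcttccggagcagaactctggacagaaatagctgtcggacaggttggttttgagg
Ripk1, second start (chr13:34002624-34002923, plus strand): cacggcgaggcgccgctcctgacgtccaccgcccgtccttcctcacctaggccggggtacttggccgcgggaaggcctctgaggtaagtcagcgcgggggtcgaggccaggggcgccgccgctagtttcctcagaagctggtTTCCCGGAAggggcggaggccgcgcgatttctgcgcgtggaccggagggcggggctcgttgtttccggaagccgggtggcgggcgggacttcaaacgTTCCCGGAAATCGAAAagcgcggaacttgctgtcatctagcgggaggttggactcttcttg

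Of the 9 genes, 6 had start regions in the table, 7 in all, and these were searched on both strands for 5 motifs. The ISRE (GAAA, any 2 bases, GAAA) occurred in 2 of the 7, against 3.44% of 32851 regions of the same length. Counted from the RefSeq starts, one match began at position 7 of Cflar and read on the minus strand, and the other began 5 bases before the second Ripk1 start. The RefSeq start of Cflar, at 58711491, lies upstream of the deposited model, and the match lies wholly before that model's first base. The GAS (TTCNNNGAA) occurred only in that Ripk1 region, at positions -108 and -11, the second overlapping the ISRE, and in 8.3% of all regions. AP-1 (TGANTCA, 7.81% of all regions), the cyclic AMP response element (TGACGTCA, 1.79%) and the kappaB consensus (5.8%) had no match in the 7. Of the genes with a match, Cflar was higher and Ripk1 did not pass, while Casp8 and Mlkl were higher with no match in these windows. Ripk2, Zbp1 and Tradd had no start region and were not searched. A link between matches and calls was not tested. The Casp8 region belongs to a start 7128 bases inside the deposited gene model, at the start of another GENCODE M21 transcript, so the model's own first start was not searched.

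Of the necrosome genes Mlkl was called, while the kinases Ripk3 and Ripk1 were not. Ripk3, which phosphorylates MLKL, had 16.6 and 14.2 CPM in LysoPS libraries and 12.01 and 12.14 in mock libraries. The groups did not overlap, but the log2 fold change of 0.35 (95% interval from 0.03 to 0.67) was not called (adjusted p = 0.102 by edgeR). Without LysoPS replicate 2 it was 0.47 and passed (adjusted p = 0.0401 by edgeR). Mlkl had 12.9 and 11.3 CPM after LysoPS and 7.34 and 6.50 in mock, a log2 fold change of 0.81 ± 0.14 (SE; adjusted p = 0.0138 by edgeR). That call was lost without mock replicate 2 (0.72, adjusted p = 0.0809 by edgeR) and in the limma test on log2(TPM + 1) (0.52, adjusted p = 0.0631). Both are minus-strand genes, Ripk3 at chr14:55784996-55788857 and Mlkl at chr8:111311797-111338177 (GRCm38).

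Ripk1, the kinase shared by the survival and death complexes, had a value that depended on the scale and on single libraries. Its CPM was 83.1 and 96.3 in LysoPS libraries and 82.3 and 57.9 in mock libraries, where the replicates differed by 1.42 times, the largest ratio between replicates among the 9 genes. The log2 fold change was 0.36 (95% interval from -0.11 to 0.82; adjusted p = 0.216 by edgeR), 0.63 without mock replicate 1 and 0.12 without mock replicate 2, with no call in either case. In TPM the order turned, with 30.4 and 34.04 after LysoPS inside the mock values of 48.7 and 23.6. The limma test on log2(TPM + 1) gave -0.08 (adjusted p = 0.888), or 0.06 relative to the median of all genes, which that scale moved to -0.14. Deposited counts and FPKM together imply a transcript length for each library, and for Ripk1 it was 1.54 times longer in the longest library than in the shortest, mock replicate 1. That library's value was 0.743 of the gene's mean, against 1.05 to 1.15 in the other libraries.

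Ripk1 occupies chr13:34002363-34037147 (plus strand, GRCm38). GENCODE M21 gives it a pair of long coding transcripts whose starts are 511 bases apart, one of 3266 exon bases and the other of 6472. Its first bases overlap the gene Serpinb6a on the other strand by 432 bases. Serpinb6a held 4008 and 4810 counts in LysoPS libraries and 2769 and 3640 in mock libraries. The labels do not say whether strand entered the counting, and the part of transcript assignment or of Serpinb6a reads in the Ripk1 values was not tested.

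**Figure D3:**
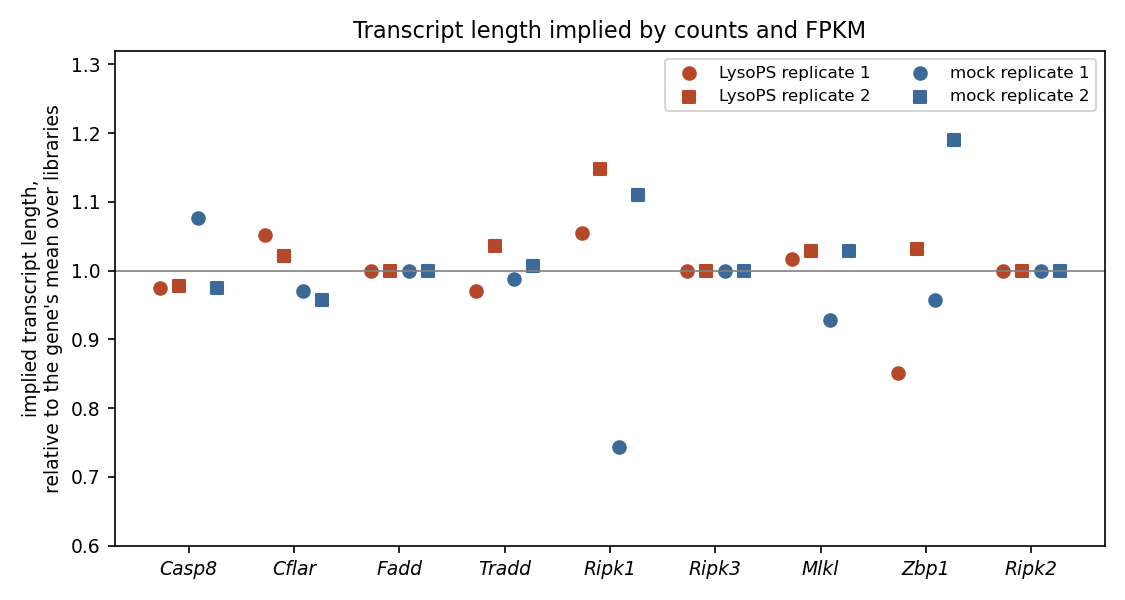
Transcript length implied by the deposited counts and FPKM of each gene in each library, relative to the gene's geometric mean over the 4 libraries (1 on the vertical axis). Ripk1 in mock replicate 1 lies lowest (0.743) and Zbp1 spans 0.851 to 1.19, while Ripk2, Ripk3 and Fadd lie at 1 in each library.

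Zbp1, the nucleic acid sensor, had 26.6 and 21.1 CPM in LysoPS libraries, against 7.66 and 8.05 in mock libraries. The lowest LysoPS value was far above the highest mock value, and the log2 fold change was 1.60 ± 0.15 (SE; adjusted p = 0.00273 by edgeR). The LysoPS replicates differed by 1.26 times, and the log2 fold change was 1.42 without LysoPS replicate 1 and 1.76 without LysoPS replicate 2. Its implied length varied by 1.40 times between libraries, and its TPM, 41.6 and 28.7 after LysoPS and 12.2 and 10.6 in mock, spread more than its CPM. The limma test on log2(TPM + 1) also called it (1.53, adjusted p = 0.0103). The gene occupies chr2:173206612-173218923 (minus strand, GRCm38).

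Ripk2, the NOD kinase, had close replicates in both groups. It stood at 39.9 and 39.3 CPM in LysoPS libraries and 12.2 and 11.7 in mock libraries. The log2 fold change was 1.73 ± 0.09 (SE; adjusted p = 0.000559 by edgeR) and lay between 1.70 and 1.76 when any 1 library was left out. Its implied length varied by 1.00 times, and the limma test on log2(TPM + 1) gave 1.46 (adjusted p = 0.00229). The gene occupies chr4:16122733-16163647 (minus strand, GRCm38).

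Both LysoPS libraries lay above both mock libraries for 8 of the 9 genes in CPM, an order that 32.5% of all tested genes had, and for 7 in TPM, an order that 20.1% had. The opposite CPM order, that of Fadd, was found for 34.5% of all tested genes. When edgeR tested for a change beyond 1.5-fold, Ripk2, Zbp1 and Cflar passed (adjusted p = 0.00117, 0.00898 and 0.0179), and 3.58% of all genes passed as higher. DESeq2 and limma-voom each called 5 of the 9 higher, against 15.8% and 12.8% of the genes with an adjusted p in each. The same number passed with DESeq2 size factors (13.3%), no filter (8.46%), a stricter filter (16.5%) and a replicate block (14.7%). In limma on log2(TPM + 1) and log2(TPM + 0.1) 4 passed, against 7.1% and 6.98% of all genes. Without LysoPS replicate 1 there were 5 (9.76% of all genes), without LysoPS replicate 2 there were 6 (14.1%), without mock replicate 1 there were 5 (6.21%), and without mock replicate 2 there were 3 (5.97%). Among gene models whose implied length varied by at most 1.2 times, which left out Ripk1 and Zbp1, 4 of the remaining 7 genes were higher, against 14.8% of such models.

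Per length, the order of the genes differed between the groups. In LysoPS libraries Cflar (53.1 ± 8.06 TPM, SD, n = 2) and Casp8 (47.8 ± 5.49) stood first and overlapped, then Zbp1 (35.1 ± 9.16) and Ripk1 (32.2 ± 2.55), which also overlapped. Below them came Ripk2 (28.3 ± 0.708), Ripk3 (15.7 ± 1.23), Tradd (12.7 ± 0.826), Mlkl (11.8 ± 0.763) and Fadd (7.84 ± 0.186), and of these neighbours only Tradd and Mlkl overlapped. Ripk2 also overlapped with Zbp1, which stood at 28.66 TPM in LysoPS replicate 2, where Ripk2 stood at 28.81. In mock libraries Ripk1 (36.2 ± 17.7), Casp8 (30.6 ± 0.493) and Cflar (28.5 ± 3.80) stood first and overlapped, with Ripk3 next (13.9 ± 0.395). Zbp1 (11.4 ± 1.12) and Tradd (11.3 ± 0.252) overlapped in the middle, and Fadd (9.75 ± 0.0110), Ripk2 (9.62 ± 0.106) and Mlkl (7.996 ± 1.10) stood last. Ripk2 thus ranked 5 after LysoPS and 8 in mock, and Zbp1 ranked 3 after LysoPS and 5 in mock, but their LysoPS values overlap.

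Ratios between partners were read within each library from TPM, where 2 libraries against 2 cannot give an exact two-sided permutation p under 0.333. The protease to its brake, Casp8 over Cflar, stood at 1.09 and 0.747 in LysoPS libraries and at 1.17 and 0.994 in mock libraries, so the groups overlapped (exact permutation p = 0.667). In CPM the same ratio was 0.499 and 0.353 after LysoPS and 0.644 and 0.5002 in mock, which left a gap between groups of 0.499 against 0.5002. GENCODE M21 gives Cflar coding and noncoding transcripts, and these gene-level values do not separate the long form of c-FLIP from the rest. Mlkl over Ripk3, the executioner to its kinase, stood at 0.747 and 0.762 after LysoPS and at 0.644 and 0.509 in mock, without overlap (exact permutation p = 0.333). Ripk1 over Ripk3 was 1.84 and 2.29 in LysoPS libraries, inside the mock values of 3.58 and 1.67 (exact permutation p = 1). ADAR edits the double-stranded RNA that can become a ZBP1 ligand, and Zbp1 over Adar stood at 1.54 and 0.833 after LysoPS and 0.377 and 0.316 in mock (exact permutation p = 0.333). Adar itself had 71.2 and 87.8 CPM in LysoPS libraries and 78.6 and 76.8 in mock libraries, which overlap.

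**Figure D4:**
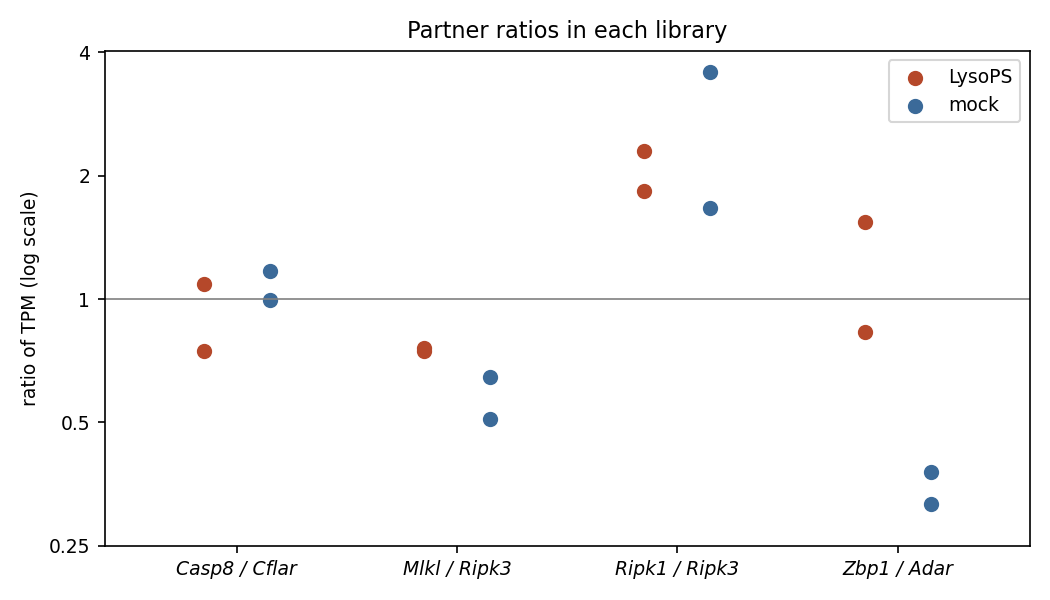
Ratio of the TPM of partner genes in each library, on a log axis, with LysoPS points left of mock points. Zbp1 over Adar and Mlkl over Ripk3 do not overlap between groups, and the other pairs do.

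The rest of the pathway was read from 7 lists with 78 genes, of which 75 were tested. Of these, 31 were higher (41.3%) and 3 lower (4%, namely Casp6, Il18 and Gsdme), where 12.8% of all tested genes were higher and 12.6% lower. The median log2 fold change of the 75 genes was 0.27, against -0.01 over all tested genes. The lists were chosen with earlier results of these data known, so these shares are a description and no independent evidence. The share of tested genes called higher ran from 18.2% in the list for membrane repair to 58.3% in that of the triggers. Of 12 tested death receptors, ligands and other triggers 7 were higher, led by Tnf (log2 fold change 5.65), its receptor Tnfrsf1b (2.29), the death receptor Fas (1.31) and the RIPK3-binding TLR adaptor Ticam1 (0.71). Tnfrsf1a, the receptor that recruits TRADD, was also called (0.33), although its implied length differed up to 1.55 times between libraries. In TPM its groups overlapped, with 172 and 168 in LysoPS libraries inside the mock values of 239 and 149. The ligands Fasl and Lta had too few counts to be tested, at most 4 in a library. Fas stood at 68.7 and 61.9 CPM in LysoPS libraries and 27.5 and 25.3 in mock libraries. The part of the microglia markers, which were also mostly higher, was not tested for these lists either.

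Of 22 genes of the ubiquitin and kinase checkpoints around RIPK1, 8 were higher. Those with the smallest p were the kinase Ikbke (2.37), the ligase cIAP2, encoded by Birc3 (2.52), the ubiquitin-binding Tnip1 (1.85) and Mapkapk2 (1.02), a kinase that phosphorylates RIPK1. Birc3 stood at 69.9 and 63.0 CPM in LysoPS libraries and at 12.4 and 10.8 in mock libraries. The other 14 did not pass, among them the deubiquitinase Cyld (0.19) and the kinase Map3k7 (-0.59), at 124 and 51.0 CPM in LysoPS libraries and 128 and 135 in mock libraries, where LysoPS replicate 2 stood apart.

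Downstream of caspase-8, 5 of 12 apoptosis genes were higher. They included cytochrome c, Cycs (0.67), the pore former Bax (0.57), the caspase-8 substrate Bid (0.54) and Bak1 (0.39). Casp6 was lower (-0.38). Xiap, a ligase that ubiquitinates RIPK2, had 32.8 and 32.6 CPM after LysoPS and 119 and 28.6 in mock. Its mock replicate 1 stood apart from the other libraries, and its log2 fold change of -1.17 was not called (adjusted p = 0.233 by edgeR).

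Around Ripk2, 2 of 6 genes were higher, the adaptor Card9 (1.77) and the sensor Nod2 (1.84), which stood at only 1.94 and 1.99 CPM in LysoPS libraries and 0.487 and 0.601 in mock libraries. Itch (0.30) and Xiap did not pass. Around Zbp1, 3 of 6 tested interferon genes were higher, among them the transcription factor Irf9 (0.35) and the RNA-activated kinase Eif2ak2 (0.34), while Stat2 (0.13) did not pass and Ifnb1 had at most 6 counts in a library. In TPM Irf9 overlapped between groups, at 37.3 and 35.7 in LysoPS libraries and 33.7 and 36.5 in mock libraries. So did Eif2ak2, at 37.0 and 44.3 TPM in LysoPS libraries and 35.25 and 39.5 in mock libraries. Among 7 caspase-8 relatives and pyroptosis genes 4 were higher, Il1b (7.02), Casp4 (3.16), Casp1 (1.84) and the pore former Gsdmd (1.14), and 2 were lower. Il1b stood at 19.2 and 17.1 CPM in LysoPS libraries and at only 0.195 and 0.0925 in mock libraries, so the size of its fold rests on few mock reads. The implied length of Casp4 differed up to 1.26 times between libraries. Of 11 genes that repair or traffic the membrane MLKL damages, 2 were higher, a share of 18.2% that is near the 12.8% over all tested genes. They were the ESCRT genes Pdcd6ip (0.42) and Tsg101 (0.31), while Rab27a (-0.56) and Flot1 (0.28) did not pass.

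**Figure D5:**
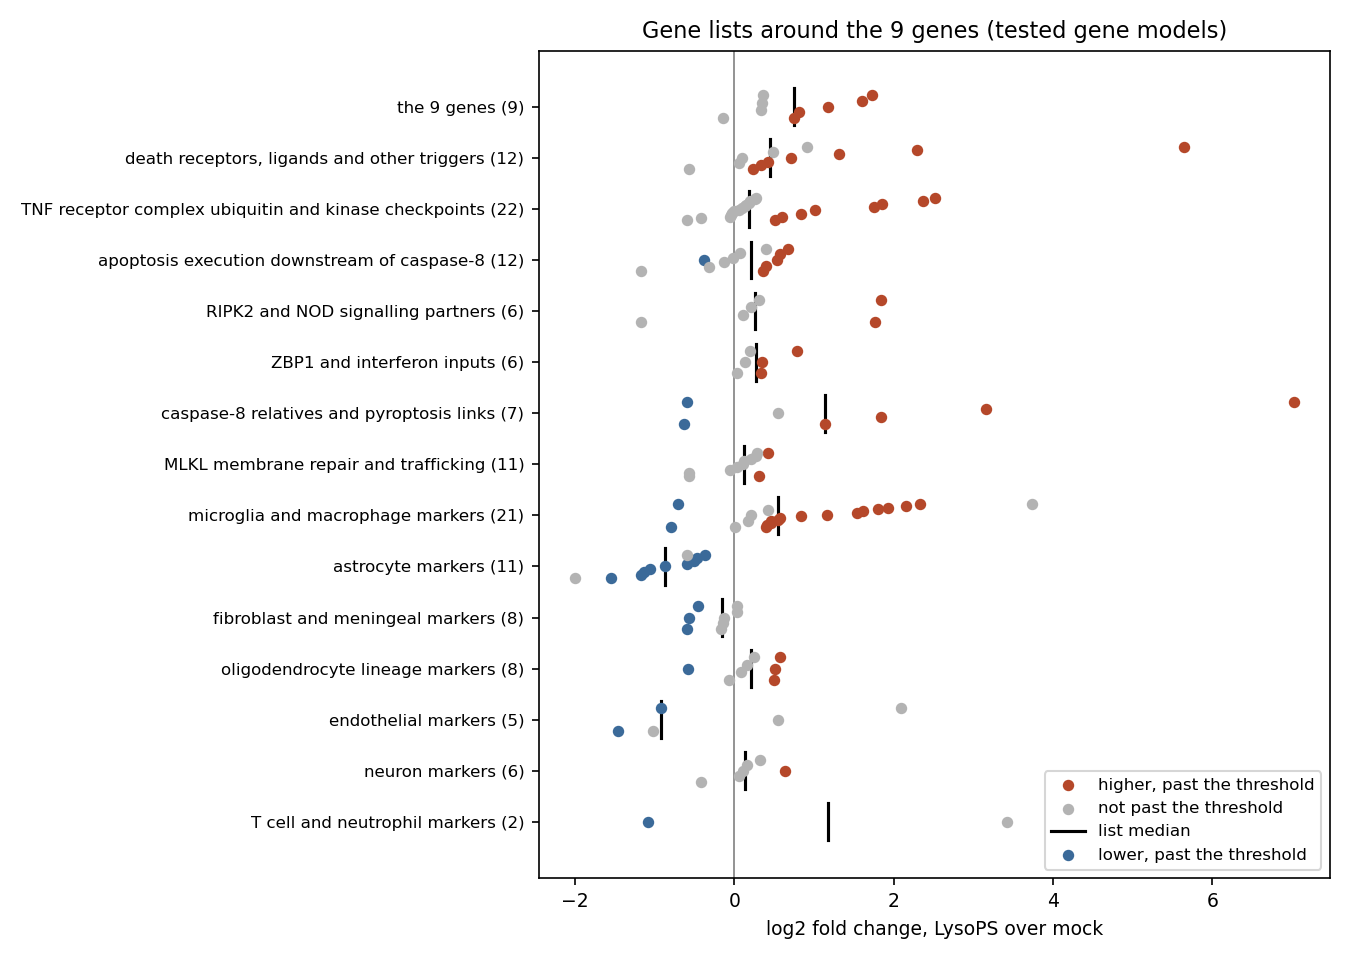
Log2 fold change, LysoPS over mock, of each tested gene model by list, with the number tested in brackets; red points were called higher, blue lower, grey not, and black bars mark list medians. The 9 genes have a median of 0.75, the microglia markers 0.54 and the astrocyte markers -0.87.

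Genes most like the 3 largest differences were looked up by the root-mean-square difference of centred log2 CPM over the 4 libraries, among 12618 genes of at least 5 CPM. For Ripk2 these were Arl5c (0.0213), Lmo2 (0.0232) and Abcc1 (0.0307). For Zbp1 they were Snx20 (0.0280), Usp18 (0.0501) and Siglec1 (0.0585), with Usp18 at 15.8 and 12.2 CPM in LysoPS libraries and 4.58 and 5.11 in mock libraries. For Cflar they were Pappa (0.0430), Rbpj (0.0616) and Mir22hg (0.0650). With 4 libraries such likeness is a description of these samples.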

How the data were processed

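The 4 libraries were made from poly-A RNA. HISAT2, StringTie, Trimmomatic 0.36, FastQC 0.11.2 and the build GRCm38 are named, per the submitters' processing notes. Neither the counting program nor the annotation release is stated there. The deposited table lists counts, TPM and FPKM for each gene model, per the file headers. Deposited counts were whole numbers without normalization, 30001098 to 45193959 per library. Deposited TPM served for levels between genes, and deposited FPKM only for implied transcript lengths (at least 20 counts in each library); 14.4% of 15801 such models varied by over 1.2 times. Replicates differed by more than counting noise (chi-square per degree of freedom 27.1 in LysoPS, 17.3 in mock).

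Counts were fitted in R 4.3.3 with edgeR 4.0.16 (filterByExpr, minimum count 10; TMM; quasi-likelihood F test, 2 residual degrees of freedom; biological coefficient of variation 0.150), after a test on simulated data. Standard errors are the log2 fold change over the square root of F. Log2 CPM used a prior count of 2. Alternatives were DESeq2 1.42.0, limma 3.58.1 (voom, and log2(TPM + 1) or log2(TPM + 0.1)), other filters and size factors, a replicate block, left-out libraries and a fold threshold of 1.5.

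The members and lists were chosen with earlier results of these data known. All 9 members, the 4 smallest p-values of each pathway list, the 3 most abundant genes of each cell type list and the 3 genes most like each of the 3 largest called members were to be named, apart from a gene not reported here; Csf1r, Tnfrsf1a, Cyld, Map3k7, Casp6, Il18, Gsdme (Dfna5 in the table), Serpinb6a and untested or zero-count genes were added after their values were seen.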

Additional observations from a re-analysis of the deposited data

How the results depend on the processing

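Across 13 alternatives, Ripk2, Zbp1 and Cflar were called in each and kept their direction, at log2 fold changes of 1.46 to 1.76, 1.42 to 1.76 and 0.87 to 1.28. Casp8 lost its call against a fold of 1.5 as the null (0.75, adjusted p = 0.347) and without mock replicate 2; left-out libraries gave 0.58 to 0.89. Mlkl lost its call against that null (0.81, adjusted p = 0.232), in limma on log2(TPM + 1) (0.52) and log2(TPM + 0.1) (0.56, adjusted p = 0.0611) and without mock replicate 2; left-out libraries gave 0.71 to 0.91. Ripk3 gave 0.23 to 0.47 with a library left out. Ripk1 was -0.08 in both TPM fits, where the cause was not tested. The count of the 9 genes called higher was 3 against the fold of 1.5 and 3 to 6 with a library left out; among models with stable implied lengths, an alternative added after seeing the data, it was 4 of 7, Zbp1 and Ripk1 not being among them.

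Over all genes 4854 were called (2447 higher, 2407 lower). Left-out libraries gave 2165 to 5356 (1161 to 2768 higher, 986 to 2588 lower), and the fold of 1.5 gave 1064 (683 higher, 381 lower). Limma called 1353 higher and 3088 lower on log2(TPM + 1), and 1330 and 3018 on log2(TPM + 0.1), so that 30.5% and 30.6% of calls were higher, against 50.4%. In the pathway lists the higher and lower counts were 20 and 6 on log2(TPM + 1), 20 and 5 on log2(TPM + 0.1), and 13 and 0 against the fold of 1.5; left-out libraries gave 18 to 29 higher and 0 to 5 lower.

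With the replicate number as a block, 5433 genes were called, against 4854 without it, and the same 5 of the 9 genes. The deviations of same-numbered libraries correlated at 0.0775. With 2 libraries per group the crossed pairing must give the opposite sign (-0.0775), so this value cannot decide whether same-numbered libraries were pairs. The main fit did not take the numbers as pairs. With a library left out, the log2 difference between groups ran from -0.80 to 0.30 for Ripk1 over Ripk3 (0.03 in CPM) and from -0.53 to 0.01 for Casp8 over Cflar, so neither kept its direction, and from 0.23 to 0.57 for Mlkl over Ripk3 and 1.27 to 2.16 for Zbp1 over Adar. Each of the 9 genes had 226 to 5994 counts per library, and over all genes replicates differed by more than counting error.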
